A study of Arabidopsis thaliana with 3 samples.

Results

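Genes of cell wall enzymes and wall-linked proteins that carried FHY3 peaks, 5 in all, were described in inflorescences of Arabidopsis thaliana: the beta-galactosidase genes BGAL10 (AT5G63810) and BGAL14 (AT4G38590), the beta-xylosidase gene BXL2 (AT1G02640), and SKS6 (AT1G41830) and sks15 (AT4G37160) of the SKU5 family. Peaks were taken as theirs when the peak interval overlapped the annotated gene or the 3 kb on either side of it. By this rule the 5 genes, of 27444 protein-coding nuclear genes, took 6 of the 1477 peaks of ChIP replicate 1 and 7 of the 1361 peaks of replicate 2. The genes were chosen by the presence of peaks in these 2 lists, so their peak counts, scores and ranks are given as a description and were not tested.

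FHY3 is a DNA-binding transcription factor of far-red light signalling, related to transposases. Chromatin immunoprecipitation with sequencing (ChIP-seq) had been run with an anti-FLAG antibody on plants of genotype 35S:3FLAG-FHY3-3HA fhy3-4, in which the tagged protein is made in the fhy3-4 mutant from the constitutive 35S promoter, so binding was mapped for a transgenic protein that is not under its own promoter. Plants stood in a greenhouse in long days (16 h light and 8 h dark), and the tissue was whole inflorescence with flowers of stage 8 and younger, a mixture of cell types. The 2 ChIP samples are biological replicates per the submitters' design text, and 1 input sample, with no antibody, was not used here. No other genotype or treatment was compared, no expression was measured here, and the peak lists do not allow the tissue to be checked by marker genes.

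The plant cell wall is a network of cellulose, hemicelluloses such as xyloglucan and xylan, and pectins, and it is remodelled by enzymes as cells grow. Beta-galactosidases release galactose from the side chains of wall polysaccharides and wall glycoproteins, and BGAL10 is known for its action on xyloglucan. Beta-xylosidases release xylose from xylan and related chains. SKU5 and its relatives are similar to multicopper oxidases; SKU5 is a glycoprotein of the plasma membrane and cell wall that affects directional root growth, and SKS6 is known for a role in the vein pattern of cotyledons.

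Each of the 5 genes held a main peak, the highest-scoring one of its window, in both replicates. The 2 lists gave the genes the same order by score: BGAL14 first, then BGAL10, sks15, BXL2 and SKS6. Across all protein-coding genes, 5.45% had a peak of each list in the same window, and among the 6626 genes within the length range of the 5 genes 5.96% did; since peaks chose the genes, nothing is read from the 5 of 5 beside these shares. The authors' score has no stated scale, so it ranks peaks within a list and was not compared between lists. The lists hold no reads, so depth is unknown and single peaks have no error of counting.

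The BGAL14 peak was among the best-scored of each list. In replicate 1 it ran from 18037372 to 18038916 on chromosome 4, with a width of 1545 bp and a score of 1145, rank 19 of 1477. In replicate 2 it ran from 18037312 to 18038855, with a width of 1544 bp and a score of 1934, rank 16 of 1361. Both replicates thus placed it in the top 1.29% and 1.18% of their lists. Ordered by the sum of both ranks, it was number 16 of 944 overlapping peak pairs, and number 2 of the 218 pairs in which both peaks lay wholly inside the same protein-coding gene.

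BGAL10, the other beta-galactosidase gene, came next. Its peak ran from 25537470 to 25538523 on chromosome 5 in replicate 1, with a width of 1054 bp and a score of 427, rank 81. In replicate 2 it ran from 25537087 to 25538599, with a width of 1513 bp and a score of 874, rank 70. The replicate 2 peak held the whole of the replicate 1 peak and was wider toward the lower-numbered side. The pair was number 74 of 944 by summed rank.

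The sks15 peak on chromosome 4 ran from 17496096 to 17497031 in replicate 1, with a score of 238 and rank 193, and from 17496054 to 17497198 in replicate 2, with a score of 394 and rank 211. Its widths were 936 and 1145 bp. It stood in the top 13.1% and 15.5% of the lists and was number 196 of the 944 pairs.

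The BXL2 peak on chromosome 1 ran from 566401 to 567404 in replicate 1, with a score of 143 and a tied rank of 292.5. In replicate 2 it ran from 566374 to 567485, with a score of 157 and rank 395. It thus stood in the top 19.8% of the first list and the top 29.0% of the second, at widths of 1004 and 1112 bp, and was number 332 of the 944 pairs.

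SKS6 had the lowest ranks and the most peaks. Its main peak on chromosome 1 ran from 15604458 to 15605714 in replicate 1, with a width of 1257 bp, a score of 74.2 and rank 484. In replicate 2 it ran from 15604510 to 15605710, with a width of 1201 bp, a score of 44.9 and rank 785. These are the top 32.8% and the top 57.7% of the lists, and the pair was number 585 of 944. SKS6 was the only one of the 5 genes whose main peak scored under 100 in either list.

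SKS6 also had further peaks beside the gene. A narrow one was found in both replicates, from 15608707 to 15609221 with a score of 34.5 in replicate 1 and from 15608671 to 15609228 with a score of 27.6 in replicate 2, 740 and 704 bp from the gene's higher-numbered end. Another was listed in replicate 2 only, from 15609552 to 15610563 with a score of 38.6. It lay 1585 bp from SKS6 and 27 bp from the annotated pseudogene AT1G41835. The other 4 genes had a single peak in their window in each list.

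With 2 replicates, the spread of a gene's rank is the range between the lists, and the ranges of neighbouring genes in the order did not overlap: 1.18 to 1.29% for BGAL14, 5.14 to 5.48% for BGAL10, 13.1 to 15.5% for sks15, 19.8 to 29.0% for BXL2 and 32.8 to 57.7% for SKS6. The median of the 5 was 13.1% in replicate 1 and 15.5% in replicate 2. The ranges widened down the order, as the plot of ranks in both lists shows. Other peak pairs also in general differed more between the lists at lower ranks, so the widening is not particular to these genes. Ranks near the top of both lists leave little room for a difference, so some widening comes with the scale. How much was not tested.

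**Figure D1:**
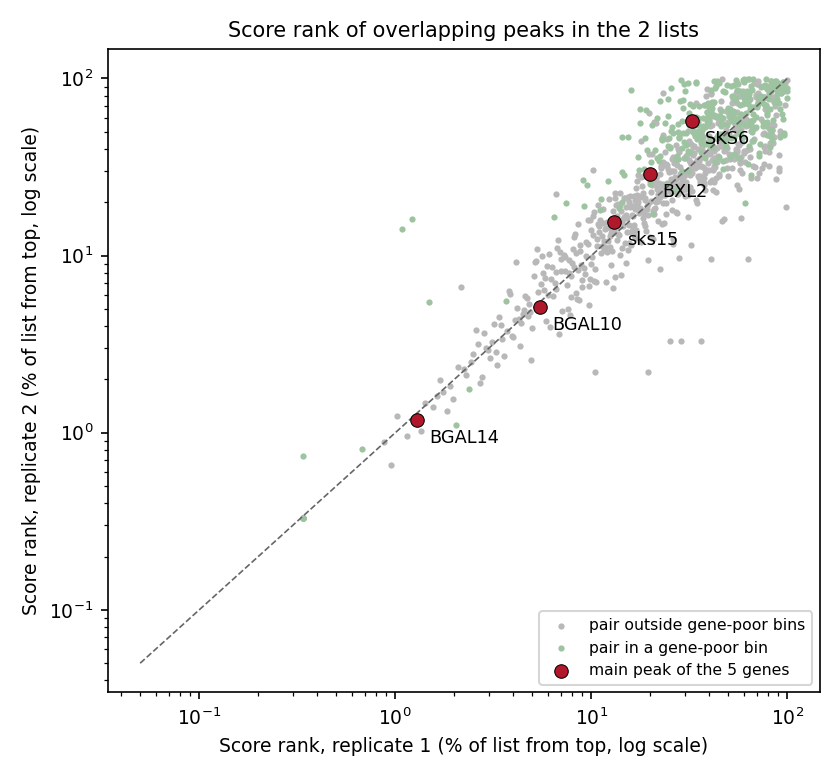
Score rank in replicate 1 (horizontal) and replicate 2 (vertical), each as a percent of the list counted from the top on log axes, for 944 overlapping peak pairs (small points, coloured by gene density of the bin) and for the main peaks of the 5 genes (large points). BGAL14, BGAL10 and sks15 lie near the dashed line of equal rank, while SKS6 lies above it, at 32.8% in replicate 1 and 57.7% in replicate 2.

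The change of rank between replicates was largest for SKS6, which stood 24.9 percentage points lower in replicate 2 than in replicate 1. Of all 944 pairs, 9.11% had a larger drop. SKS6 was the only one of the 5 genes in a gene-poor bin, a 500 kb stretch with under 0.5 times the median gene density of its chromosome. The 318 pairs in such bins dropped by a median of 10.98 points with an upper quartile of 22.4, so SKS6 lay little beyond that quartile. The other 626 changed by a median of -0.13 points with an upper quartile of 3.99. Whether gene density has a part in the SKS6 value was not tested. On the same scale, on which a positive value is a drop in replicate 2, BXL2 changed by 9.22 points, sks15 by 2.44, BGAL14 by -0.11 and BGAL10 by -0.34.

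Although the ranks of SKS6 differed between the lists, its main peak had the closest match in position of the 5 genes. The overlap of its peaks covered 95.5% of the stretch spanned by both, and the midpoints lay 24 bp apart. The same overlap was 92.5% for BGAL14, 90.3% for BXL2, 81.7% for sks15 and 69.7% for BGAL10, and the midpoints lay 60.5, 27, 62.5 and 153.5 bp apart. The median over all 944 pairs was 80.1%, with midpoints 73.5 bp apart, so BGAL10 alone among the 5 fell below the median overlap. Its lower value goes with the wider replicate 2 peak.

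Every main peak lay wholly inside its own gene and overlapped no other annotated gene of any type, in both replicates. Peaks wholly inside a protein-coding gene made up 23.1% of the nuclear peaks of replicate 1 and 24.2% of those of replicate 2. Of all protein-coding genes, 0.740% held such a peak of each list. That share was not matched for length, and the 5 genes are long, with a median of 4399 bp against 2078 bp over all protein-coding genes. Earlier results that assigned peaks to genes were known when the 5 genes were chosen, so their position inside genes is a description and not independent of the choice. Gene positions are those of the TAIR10.1 assembly, and no source used here names the one behind the lists, so all statements on a peak and a gene assume that both share a frame.

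Within the genes the peaks took up different places. The BGAL10 peak lay close to the lower-numbered end, with midpoints 922.5 and 769 bp from it in replicates 1 and 2, and the replicate 2 peak began just inside that end. The sks15 and BXL2 peaks lay toward the higher-numbered end, with midpoints 712.5 and 650 bp from it for sks15 and 868.5 and 841.5 bp for BXL2. The BGAL14 midpoints lay at 42.9% and 41.6% of the gene's length, and those of SKS6 at 34.5% and 35.1%, counted from the lower-numbered end. Which end is the start of transcription is not known here, because the gene table has no strand.

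The peaks covered a similar part of each gene, from 23.7% (BGAL10) to 33.9% (sks15) in replicate 1 and from 27.3% (SKS6) to 41.4% (sks15) in replicate 2. Widths of the main peaks were 936 to 1545 bp in replicate 1 and 1112 to 1544 bp in replicate 2, against medians of 906 and 953 bp over all nuclear peaks. Every main peak was thus wider than the median of its list. BGAL14, the highest by score, stood in the top 13.7% and 12.9% by width, and the widths of BGAL10 ranked at 37.3% in replicate 1 and 13.6% in replicate 2.

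**Figure D2:**
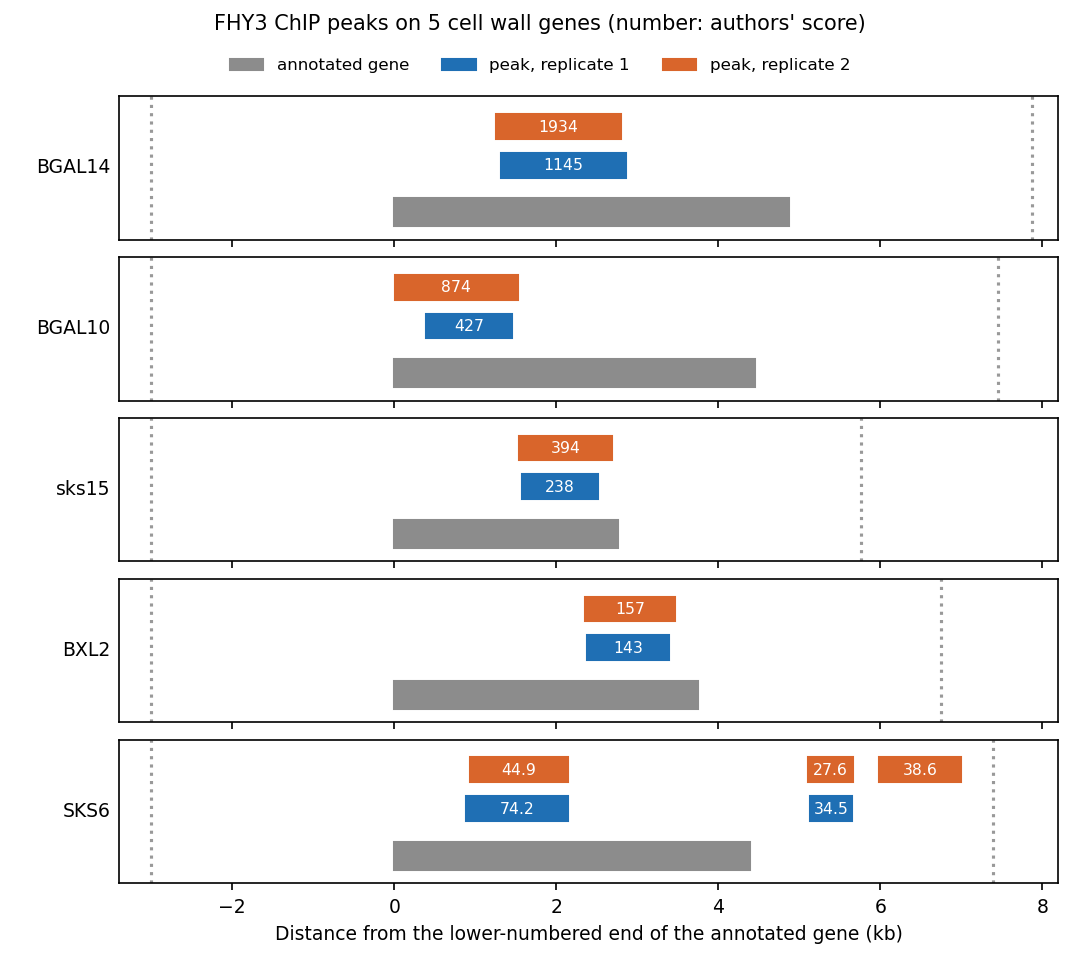
Peaks of replicate 1 (blue) and replicate 2 (orange) on the 5 genes (grey bars), drawn to scale against the distance in kb from the lower-numbered end of each gene, with the authors' score in each peak and dotted lines at 3 kb from the gene. Each gene holds 1 main peak of each list inside its span, and SKS6 has further peaks beyond its higher-numbered end, scored 34.5 in replicate 1 and 27.6 and 38.6 in replicate 2.

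The neighbours within 3 kb of the main peaks differed from gene to gene. For BGAL10 the next gene was MUM2 (AT5G63800), the beta-galactosidase gene also called BGAL6, which acts in seed coat mucilage; it lay 1580 and 1197 bp from the peaks of replicates 1 and 2, with the non-coding AT5G00700 in between. BGAL14 had FP6 at 1449 and 1389 bp and KAK at 1706 and 1767 bp. For sks15 these were AT4G37170 at 1379 and 1212 bp and MES9 at 1816 and 1774 bp, and for BXL2 AT1G02650 at 1153 and 1072 bp. In replicate 2, AT5G63820 also lay 2976 bp from the BGAL10 peak. The main peak of SKS6 had no other protein-coding gene within 3 kb.

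The 5 main peaks also stood in unlike surroundings. BXL2 was the most isolated, with the next peak 201752 bp away in replicate 1 and 201502 bp away in replicate 2, and BGAL10 followed with 73968 and 68318 bp. Neither had another peak within 50 kb in either list. The next peaks were 25208 and 24448 bp from BGAL14 and 6486 and 6265 bp from sks15. The peak beside sks15 was found in both lists, with scores of 132 and 316.

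SKS6 lay in the densest surroundings of the 5, with 5 and 6 other peaks within 50 kb and 46 and 45 within 500 kb. For peaks in gene-poor bins the medians within 500 kb were 39 in replicate 1 and 35 in replicate 2, and for peaks in other bins 9 in each list. The other 4 genes had from 6 (BGAL10) to 21 (sks15) other peaks within 500 kb in replicate 1, and from 10 (BGAL10) to 20 (sks15) in replicate 2. Of the peaks within 500 kb of SKS6, 39 of 46 in replicate 1 and 36 of 45 in replicate 2 lay on its lower-numbered side, whereas within 50 kb both sides were alike, with 3 lower and 2 higher in replicate 1 and 3 on each side in replicate 2. The plot of surrounding peaks shows the crowded stretch at the far lower-numbered edge.

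**Figure D3:**
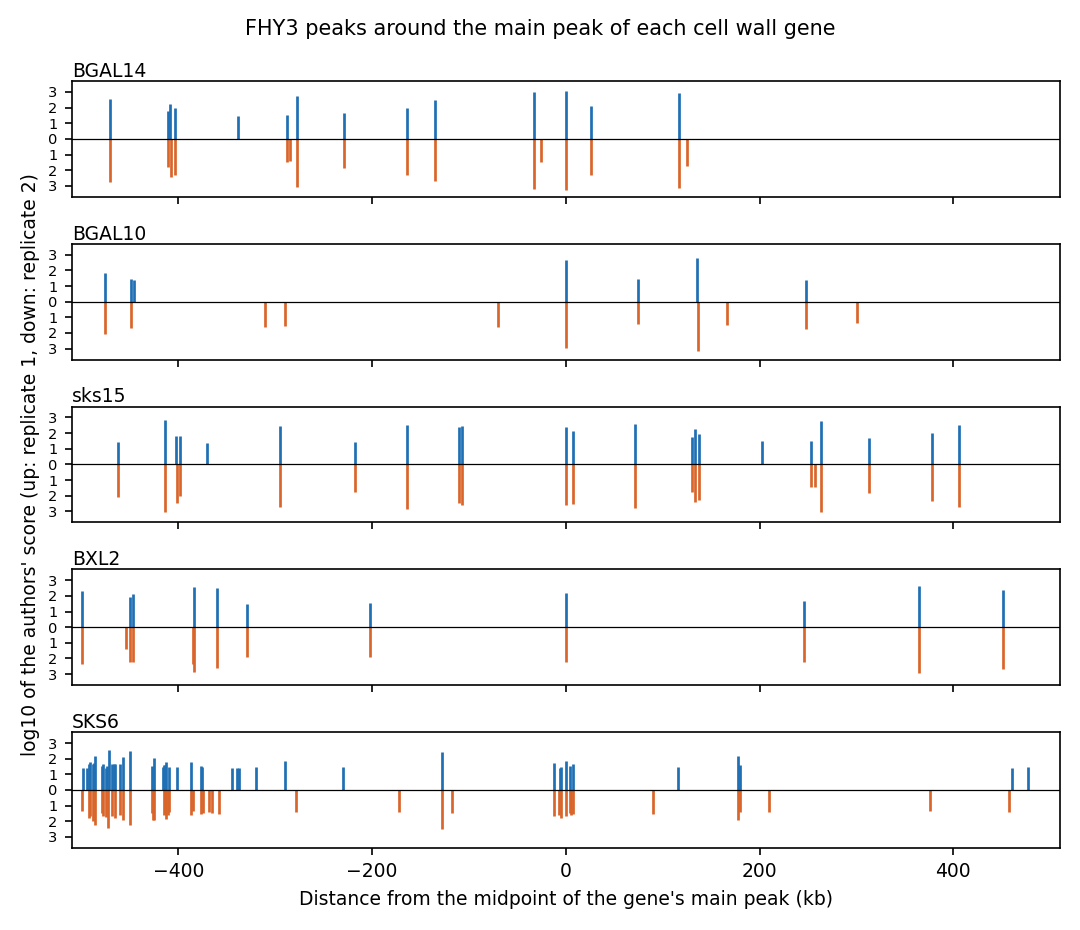
Peaks within 500 kb of the main peak of each gene, by distance in kb from its midpoint (horizontal) and log10 of the authors' score (vertical; replicate 1 upward, replicate 2 downward). SKS6 has 46 and 45 other peaks in this stretch, and BXL2, with 10 and 12, has none within 50 kb.

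The same window rule was applied to the other genes of the 3 families. Of the 38 other family genes, 3 (7.89%) had a peak of each list, 1 had one in replicate 1 only, 1 in replicate 2 only and 33 had none, beside the 5.45% of all protein-coding genes with a peak of each list. The shares for single lists were 7.24% of all protein-coding genes in replicate 1 and 7.60% in replicate 2. The families were set with earlier results of these data known, and the counts were not tested.

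Of the 15 other BGAL genes, 2 had a peak of each list. One was MUM2, and the peak in its window was the BGAL10 peak itself, so it adds no region of its own. The other was AT2G16730, named as BGAL13 in the gene table, whose chromosome 2 peak spanned 7260461 to 7261163 at a score of 88.3 in replicate 1 and 7260221 to 7261357 at a score of 167 in replicate 2. That peak lay outside any annotated gene, 619 and 425 bp from AT2G16730, with no other gene within 3 kb. BGAL16 had a peak in replicate 2 only, from 29088424 to 29089056 on chromosome 1 with a score of 34.3, which overlapped both BGAL16 and the neighbouring AT1G77405. The remaining 12 BGAL genes had none.

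Of the 17 other SKU5 and SKS genes, SKS2 alone had a peak of each list. On chromosome 5 it ran from 20908453 to 20909770 with a score of 100.2 in replicate 1, and from 20906668 to 20909661 with a score of 487 in replicate 2. It overlapped the neighbouring gene AT5G51470, which held both midpoints, and ended 433 and 542 bp from SKS2. The overlap was 39.0% of the joint stretch and the midpoints were 947 bp apart, a poorer match than at any of the 5 genes. The gene sks10 had a peak in replicate 1 only, from 13959267 to 13959771 on chromosome 4 with a score of 28.8, with AT4G28085 nearer to it at 100 bp, and the remaining 15, SKU5 among them, had none.

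None of the 6 other BXL genes had a peak in either list. These are BXL1, BXL3, XYL4 (BXL4) and the loci AT3G19620, AT5G10560 and AT1G78060, which were placed in the family by locus tag and carry no family name in the gene table. Their nearest peaks lay 14272 bp (AT5G10560, replicate 2) or farther away. Over all 3 families, none of the other 38 genes was overlapped by a peak of each list, beside 1.93% of all protein-coding genes, a share at which 0 of 38 does not stand apart. BGAL16 alone of the 38 was overlapped by a peak in a single list. Absence of a peak means here that none was called at an unknown depth.

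**Figure D4:**
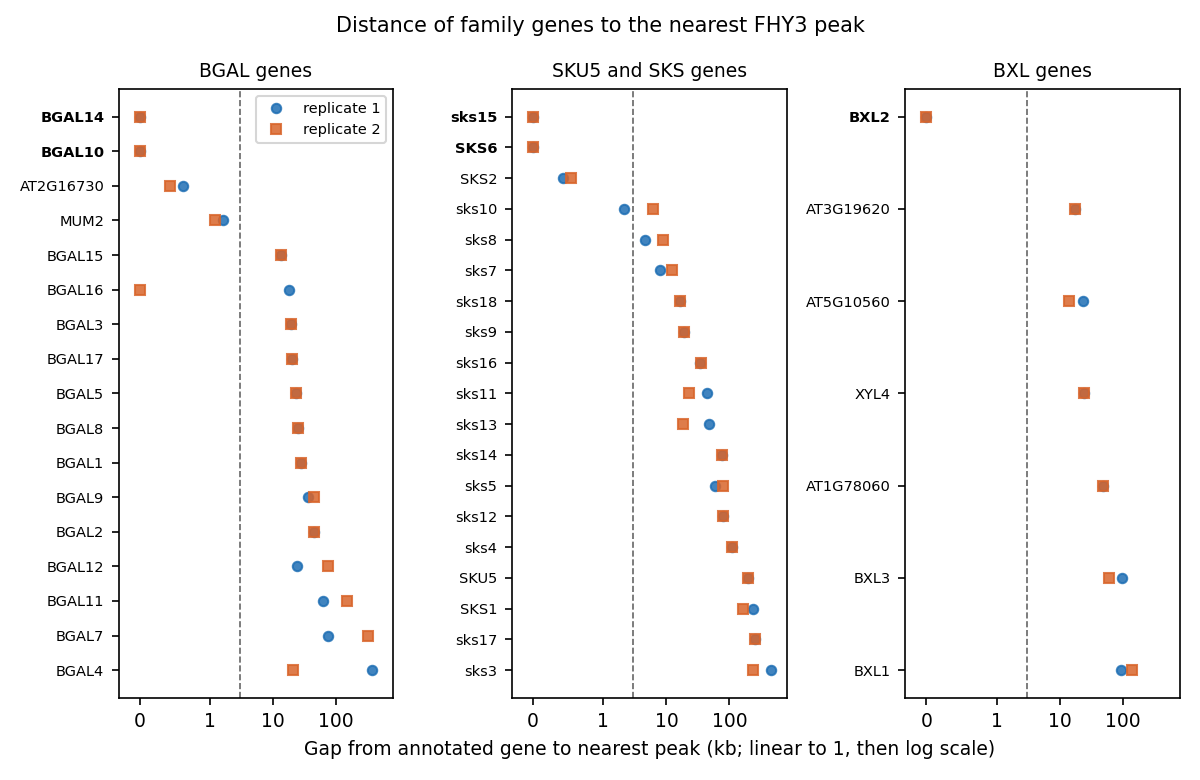
Gap in kb from each gene of the 3 families to the nearest peak of replicate 1 (circles) and replicate 2 (squares), on an axis that is linear to 1 kb and logarithmic beyond, with the 3 kb window as a dashed line and the 5 genes in bold. The 5 genes sit at 0 in both lists, 3 others (AT2G16730, MUM2 and SKS2) lie inside the window in both, and the others lie outside it in at least 1 list.

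At the limit of the window, sks10 was the last gene inside it in a single list, with its replicate 1 peak 2116 bp away, and sks8 the first outside, with a replicate 1 peak 4612 bp away. With both lists required, MUM2 was the last inside, at 1580 bp by its larger gap, and sks10 the first outside, at 6224 bp. The median gap to the nearest peak of replicates 1 and 2 was 23.8 and 23.3 kb for the other BGAL genes, 48.0 and 34.8 kb for the other SKU5 and SKS genes and 36.6 and 36.4 kb for the other BXL genes. Over all protein-coding genes it was 47.2 and 43.5 kb.

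Another 8 groups of cell wall genes were taken by family abbreviation from the gene table. Of their 200 genes, 11 (5.5%) had a peak of each list in their window, close to the 5.45% of all protein-coding genes. The counts were 1 of 37 expansins, 0 of 33 xyloglucan endotransglucosylase/hydrolases (XTH), 1 of 42 cellulose synthases and related synthases and 2 of 25 galacturonosyltransferases and relatives. They were 3 of 15 for pectin methylesterases with a PME number, 1 of 17 for laccases, 1 of 20 for fasciclin-like arabinogalactan proteins and 2 of 11 for COBRA-like genes. Peaks scoring at least 100 in each list were in the windows of 7 of the 200, beside 2.96% of all protein-coding genes.

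In 3 of these 7 the whole peak lay inside the gene in both lists, as at the 5 genes. CESA1, a catalytic subunit of cellulose synthase in primary walls, had scores of 623 and 1073 in replicates 1 and 2 (ranks 46 and 44) on chromosome 4 from 15644861 to 15646575 and from 15645021 to 15646494. FLA10 had scores of 365 and 579, and the pectin methylesterase gene AT4G02300 (PME39) had 112 and 351. SKS6, with scores of 74.2 and 44.9, would not pass the cut of 100 that these genes passed. Under that cut, COBL11 also held the whole peak of both lists, with scores of 43.75 and 52.91 in replicates 1 and 2. At EXPB4, GATL4 and GAUT12 the midpoint lay inside a neighbouring gene (AT2G45100, AT3G06270 and ILR3), with scores of 400.4 and 724, 163 and 311, and 119 and 672. These peaks lay 2420 and 2304 bp from EXPB4 and 1308 and 1235 bp from GATL4 in replicates 1 and 2. In both lists the peak at GAUT12, which acts in the making of secondary wall xylan, also overlapped GAUT12 itself. The peak near AT2G45220 (PME17) had its midpoint in no protein-coding gene and scored 290 and 1350. It lay 1582 and 1162 bp from AT2G45220 in replicates 1 and 2, and in replicate 2 it overlapped the neighbouring gene AT2G45230.

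The peak pairs with a gene that came directly before and after those of the 5 genes, in the order of the sum of the 2 score ranks, stood at or near the following genes. A pair was passed over where no protein-coding gene lay within 1000 bp of its midpoint, as happened once, before BGAL14, and since pairs were taken from both sides of the order they are not always the closest by sum. Around BGAL14 (sum 35) were AT5G04500 (32) and AT2G40310 (41), and around BGAL10 (sum 151) were AT1G03730 (151) and AT1G62480 (164). Around sks15 (404) were AT1G01490 (401) and PP2AA2 (408), and around BXL2 (687.5) were AT5G23520 (686) and RHD6 (688), a regulator of root hair growth. SKS6 (1269) stood between CYP89A9 (1268.5) and AT5G43260 (1276). At least 1 midpoint of the pair lay inside the gene except at PP2AA2 and AT5G43260, which were the nearest genes within 1000 bp. Of these 10 genes, AT2G40310 and CYP89A9 held the whole peak of both lists, as the 5 genes did. This likeness rests on 2 libraries.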

How the data were processed

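FHY3 binding was measured by ChIP-seq in 2 anti-FLAG samples of Arabidopsis inflorescences, grouped by title. The authors deposited 1 peak list per sample, without header, with a score per peak from 23.03 to 3100 in both lists, whose scale is not stated. The submitters' processing notes name MACS 1.4.2, Bowtie2 2.2.3 and CASAVA 1.8; no source used here gives their settings, the control or the build. Depth, which is unknown, can change how many peaks are called and how high they score.

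Starts were converted to positions counted from 1, and scores were ranked over each whole list with mean ranks for ties. Peaks were paired when they overlapped by at least 1 bp. Genes came from a TAIR10.1 table in which all 43 family loci were found. Coordinates printed are those of the peak lists.

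The 5 genes, the families and the rules were chosen with earlier results of these data known. Named are the 5 genes, other BGAL, SKU5/SKS and BXL genes with a peak in the window, genes at or near a peak of the 5, the genes next to them by summed rank (within 1000 bp of a midpoint), and members of 8 other wall families with peaks scoring at least 100 in both lists; the nearest genes outside the window and the genes at or nearest to the peaks of family genes were named after their values were seen. COBL11, with scores under 100, was also named after its values were seen. No statistical test was made on the data. The code for the window rule was checked on simulated peaks placed at known distances from genes. Alternatives were other windows, midpoints, a score of at least 100, single lists, a reciprocal overlap of 50%, and ranks by width or outside gene-poor bins. The search for binding motifs and the comparison of proteins need sequences and were not run. Calculations used Python 3.11.15, numpy 2.4.6, pandas 2.3.3, scipy 1.17.1 and matplotlib 3.10.9.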

Additional observations from a re-analysis of the deposited data

How the results depend on the processing

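All 5 genes kept a peak of each list under every window, midpoint and overlap rule and in each list alone, except that SKS6 was lost when a score of at least 100 was required, which left 4. Other BGAL genes with a peak of each list fell from 2 to 1 with a window of 1 kb or a score of at least 100, and to 0 within the gene alone; other SKU5 and SKS genes went from 1 to 0 within the gene alone and with a reciprocal overlap of 50%, and with single lists ranged from 1 (replicate 2) to 2 (replicate 1, which adds sks10). For the other BGAL genes, replicate 1 alone gave 2 and replicate 2 alone gave 3, which adds BGAL16. Other BXL genes stayed at 0 throughout. The share of all protein-coding genes was 3.18% with 1 kb, 1.93% within the gene, 4.92% by midpoint, 2.96% with a score of at least 100, 5.03% with reciprocal overlap, and 7.24 to 7.60% with single lists. The mean score rank over both lists (1.23% for BGAL14, 5.31% for BGAL10, 14.3% for sks15, 24.4% for BXL2 and 45.2% for SKS6) became 0.82, 7.31, 21.3 and 36.1% outside gene-poor bins for the first 4, and SKS6 has no such rank because it lies in such a bin. Ranked by width these were 13.3, 25.4, 40.6, 38.8 and 26.6%, which moves SKS6 from the last place to the third. The ranks outside gene-poor bins place the same scores among 836 peaks of replicate 1 and 876 of replicate 2. They thus differ from the main ranks only in the peaks ranked. Ranks by width use another measure, and what sets their difference from the main ranks was not tested. No paired analysis was possible because both ChIP samples belong to 1 group. With depth unknown, a gene without a peak may have one that was not called.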
